A study of Homo sapiens with 6 samples.

Results

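The genes described here encode the proteins of the cytosolic ribosome. They were taken from the deposited count table by symbol: protein-coding entries outside the Y chromosome named RPL or RPS with a number and at most a short suffix, plus RPLP0, RPLP1, RPLP2 and RPSA. The rule finds 83 of the 32353 entries, 51 for the large subunit and 32 for the small subunit. Of these, 82 passed the filter on low counts (50 large, 32 small) and were tested. The entry left out was RPL3L, the striated muscle counterpart of RPL3, which held 8, 7 and 3 counts with the control plasmid and 7, 6 and 10 under RBM24. Of the ribosomal genes that the symbols miss, FAU and RPL36AL encode ribosomal proteins and RACK1 a scaffold bound to the small subunit. Such genes are given as a separate list.

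All libraries came from CAL27, an established line of human tongue squamous carcinoma cells. The control libraries (n = 3) carried a control plasmid, and the other libraries (n = 3) overexpressed RBM24, an RNA-binding protein known mainly for its part in muscle splicing. No label says that the replicates were grown as separate cultures, so every p-value here measures the spread between these libraries, which can be technical. Because whole cultures were sequenced, a lower level can mean fewer cells with the RNA or less of it per cell, and these cannot be told apart.

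The libraries held between 53558773 and 68804210 gene counts. RBM24 stood at 2.93 ± 0.576 CPM (counts per 1000000 of the TMM-scaled library total; SD, n = 3) with the control plasmid and 120 ± 8.89 (SD, n = 3) under RBM24. Each of the 7 squamous epithelial markers was at 1 CPM or more, and their summed level was 1336 to 1355 CPM with the control plasmid and 1431 to 1471 with RBM24. Of the other cell types looked for, 0 of 4 immune, 0 of 4 muscle, 2 of 5 fibroblast and 1 of 3 endothelial markers reached 1 CPM. Control library 1 stood apart in small structured RNAs, which took 0.0396% of its gene counts and 0.0047% to 0.00667% of the others. Results on the members are therefore also given without it.

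A ribosome holds a single copy of nearly every one of these proteins, arranged on ribosomal RNA in a large subunit, which joins amino acids, and a small subunit, which reads the messenger RNA. Their messenger RNAs are among the most abundant in dividing cells, and most begin with a C followed by an unbroken pyrimidine stretch, the 5′ terminal oligopyrimidine (TOP) tract, through which mTORC1 signalling controls their translation. Many of the genes carry small nucleolar RNA genes in their introns, and their messages have left many processed pseudogenes in the genome.

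The start of the message is what most of the members share outside the symbol rule, so a few starts are shown as examples. RefSeq promoter windows on GRCh38.p14 were matched for 66 of the 82 tested members. Each line holds 25 bases in the direction of transcription, 5 before and 20 from the annotated start, and capitals mark the pyrimidine run that begins at that start. The first 5 lines are members at the ends of the orders given further on, and the last 4 are RPS27 and RPL22, each followed by its paralog.
RPL39 (chrX:119791611-119791635, minus strand): agcttCCCTCCTCTTCCTTTCTCCg
RPLP0 (chr12:120201092-120201116, minus strand): gaggcCCTTCTCTCgccaggcgtcc
RPS3A (chr4:151099623-151099647, plus strand): ttccgCCCTTTTggctctctgacca
RPS12 (chr6:132814564-132814588, plus strand): gaggcCTCTTTCCCTgccgccgccg
RPL41 (chr12:56116628-56116652, plus strand): cctttCTCTCggccttagcgccatt
RPS27 (chr1:153990757-153990781, plus strand): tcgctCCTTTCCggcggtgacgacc
RPS27L (chr15:63157458-63157482, minus strand): cgagcgcagatcgcttgcagcttgc
RPL22 (chr1:6199576-6199600, minus strand): acctcCCTTTCTaactccgctgccg
RPL22L1 (chr3:170870176-170870200, minus strand): gcttcCTCTCTgctctcgcggccga
The run was 19 bases in RPL39, 10 in RPS12, 9 in RPLP0, 7 in RPS3A, RPS27 and RPL22, and 5 in RPL41. The paralog RPS27L had no pyrimidine at its start, as was also the case for RPL26L1 and RPL7L1, whereas RPL22L1 kept a run of 6. A missing run was not particular to paralogs: RPL4, RPL10A and RPS4X had none, and 81.8% of the members had a run of at least 1. The run depends on the annotated base, and in RPL10A a pyrimidine stretch lies a few bases inside it.

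A run of at least 5 pyrimidines was present in 47 of the 66 members (71.2%) and in 7.71% of the 10802 tested protein-coding genes with a window, members included. Where a gene had several windows the longest run was used. The median run of the members was 7 bases. Other promoter motifs were searched on both strands of the window of 250 bases before to 50 after the start, over 82 member windows and 15853 windows in all, a gene counting when any of its windows matched. CCGGAA, the core of an ETS factor motif, was in 57.6% of the members and 33.5% of all the genes. TATAAA was in 9.09% against 9.07%, CACGTG in 7.58% against 12.5%, and AAGATGG in 13.6% against 9.15%. A match to CCGGAA or TATAAA can run into one to AAGATGG, since they can share the letters AA. Such matches describe the sequence and are not evidence of binding.

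**Figure D1:**
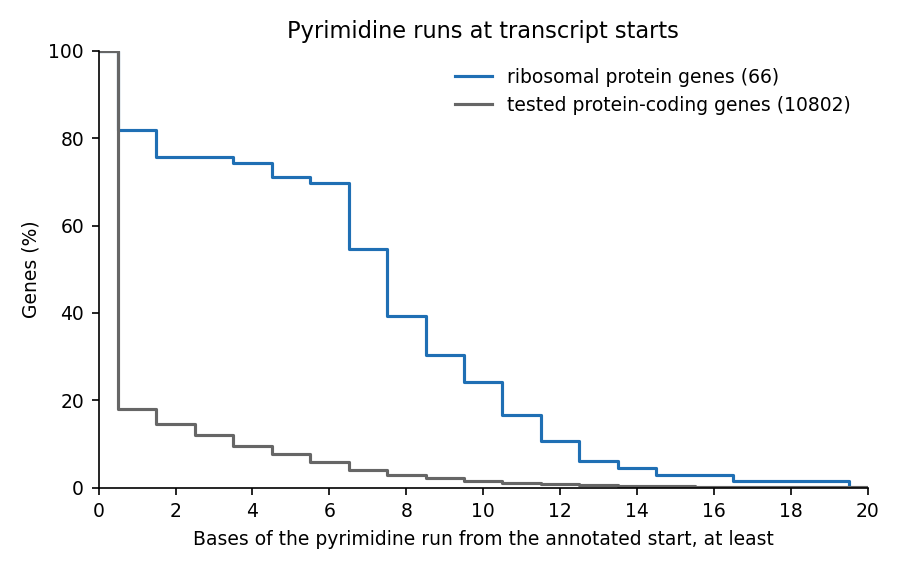
Share of genes (%, vertical axis) whose pyrimidine run from the annotated start is at least as long as the horizontal axis value in bases, for 66 ribosomal protein genes and 10802 tested protein-coding genes. At 5 bases the curves stand at 71.2% and 7.71%.

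The members lie on 21 chromosomes, with 12 on chromosome 19, 9 on chromosome 3 and 4 on the X chromosome. Small nucleolar RNA genes lie inside 28 of them (34.1%), 60 in all, against 1.54% of 13729 tested protein-coding genes in the GENCODE 29 annotation. RPL4 held 5, a number that no member exceeded. The coding transcripts of the members were short, with a median of 818 bases against 2888 for the protein-coding genes, and their median GC content was 49.5% against 49.7%.

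The members were among the most abundant messages of CAL27 cells. With 39 of the 100 genes with the highest counts, they took 8.86%, 8.76% and 8.0% of all gene counts with the control plasmid and 8.55%, 8.11% and 7.71% under RBM24. The means were 8.54% ± 0.470 (SD, n = 3) and 8.12% ± 0.421 (SD, n = 3). The groups overlapped, since RBM24 libraries 1 and 2 lay above control library 3. The large subunit genes held 5.13% ± 0.270 and 4.89% ± 0.247 of the counts and the small subunit genes 3.41% ± 0.201 and 3.23% ± 0.174 (SD, n = 3 each). The ratio of large to small subunit counts stayed between 1.49 and 1.52 in all 6 libraries.

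Levels can be compared between members only per length. In the deposited FPKM values (fragments per length and library size), the median member stood at 265 FPKM over the 6 libraries, and 69 of the 82 had a mean of at least 100. The medians of the subunits were 269 (large) and 265 (small). At the top was RPS12, a small subunit protein, with 2050 ± 194 FPKM in the control libraries and 1914 ± 108 with RBM24 (SD, n = 3 each). Next came RPS2, a protein of the mRNA entry channel, with 1234 ± 98.7 and 1162 ± 68.8 (SD, n = 3 each). Over all 6 libraries RPL7A had a mean of 852 FPKM, RPL8 of 844 and RPL41, which encodes the smallest of the ribosomal proteins, of 784. RPS12 and RPS2 did not overlap with each other or with these, whereas RPL7A and RPL8 differed by less than their SDs of 31.2 to 58.4.

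The lower end held paralogs and members whose reads are shared. RPS27L, a paralog of RPS27, had the lowest mean at 3.27 FPKM, followed by RPS10 at 3.65, RPL17 at 6.34, RPL22L1 at 22.3 and RPL7L1 at 29.7. The order among members depends on the length by which the authors divided. The lengths behind the deposited FPKM run from 691 to 10637 bases, and for 74 of the 82 members they lie within 10% of the union of all annotated exons, with a median ratio of 1.07. RPS29, a zinc-binding small subunit protein whose coding transcript has 296 bases, had an inferred length of 10637 and ranked 74 of 82. The union of its annotated exons has 9845 bases. Dividing CPM by the length of 1 coding transcript placed it at rank 29. On that scale RPS3, which lines the entry channel with RPS2, moved from rank 25 to rank 1, RPS24 from 54 to 4, and RPS12 from 1 to 11. This order depends in turn on the transcript chosen. RPL37, divided by 7686 bases, moved from rank 60 to 74, and RPL27A, divided by 4916, from 59 to 73. Neither scale is the sounder one for every member. Spearman's rho between the scales was 0.719 across the 82 members, which share libraries and counts, so it is a description.

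**Figure D2:**
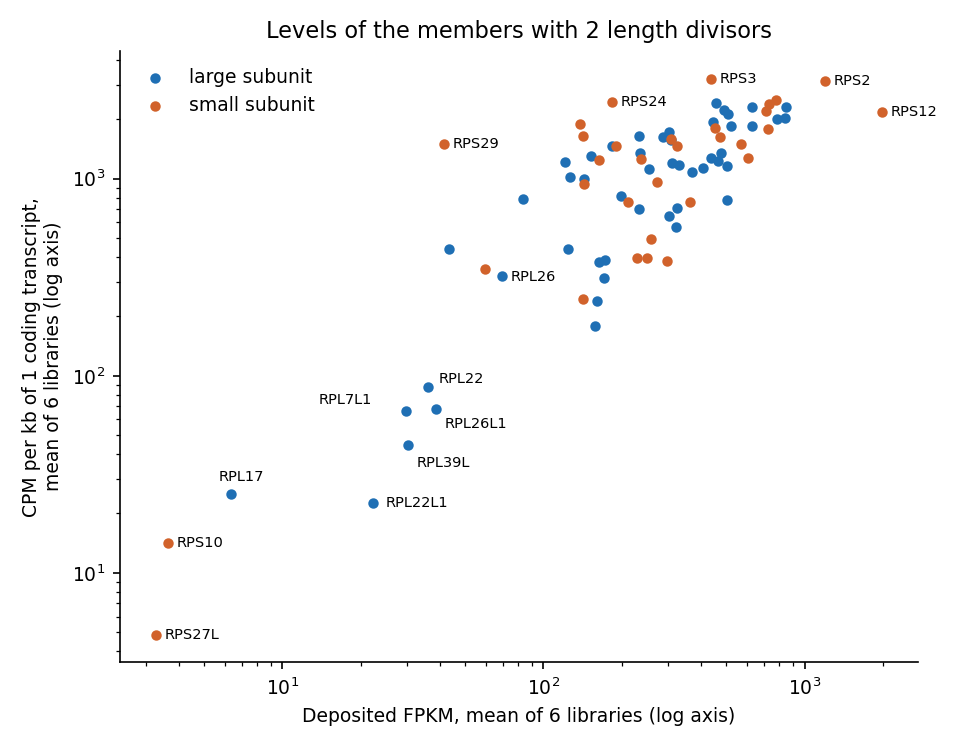
Mean level of each of the 82 tested members over 6 libraries, as deposited FPKM (horizontal, log axis) and as CPM per kilobase of 1 GENCODE coding transcript (vertical, log axis), coloured by subunit. RPS27L, RPS10 and RPL17 lie lowest on the FPKM axis, and RPS29 and RPS24 lie high on the vertical axis for their FPKM.

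For some members the count depends on how reads were assigned. In 5 of them an overlapping entry on the same strand held more counts than the member. RPS10 had a mean of 540 counts and the readthrough entry RPS10-NUDT3 51512, and RPL17 had 998 and RPL17-C18orf32 39160. RPL22 had 10813 counts against 22823 in RP1-120G22.12, and RPL26 had 11076 against 42108 in RP11-849F2.7. The levels and changes of such genes are uncertain for that reason. Near-identical pseudogenes were a smaller matter for most: 577 pseudogene entries belong to 76 members, and their summed counts had a median of 0.0419% of the member's own. The shares were 47.6% for RPL9, 29.9% for RPS28, 20.5% for RPS10 and 12.5% for RPS2, and at most 2.88% for every other tested member. RPL9P9 alone held a mean of 34838 counts, RPS2P5 22636 and RPS28P7 5753.

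No member passed the test between RBM24 and control plasmid: 0 of 82 rose and 0 fell, where 0.855% of the 17887 tested genes rose and 0.682% fell, together 1.54% (edgeR quasi-likelihood test, Benjamini-Hochberg adjusted p under 0.05). DESeq2 also called 0 members, where it called 210 of the 17887 genes higher and 151 lower. At an unadjusted p under 0.05 edgeR gave 12 members (14.6%) against 13.0% of all tested genes, and the lowest adjusted p of a member was 0.152. The fitted log2 changes were small and mostly negative, with a median of -0.10, or 0.932-fold, beside -0.0037 for all tested genes. The lowest was -0.20 (RPL39), and 77 of 82 lay below 0, against 51.4% of all tested genes. The medians were -0.10 for the 50 large subunit genes and -0.11 for the 32 small subunit genes. Without control library 1 the median of the 82 was -0.06 with 70 below 0, and without control library 3 it was -0.16 with 81 below 0. Of the 33 members chosen for naming, 17 had a change that moved by over 1.5 times, or turned, without control library 1. On the log2 scale RPS3A was then at -0.11, RPS6 at -0.06, RPS12 at -0.06, RPS14 at -0.04, RPS3 at -0.07, RPL5 at -0.05 and RPL11 at -0.04. RPL17 was at -0.06, RPL22L1 at -0.02, RPL26L1 at 0.01, RPL26 at 0.22, RPL39L at 0.09, RPS27L at 0.09 and RPS15 at -0.02. RPLP0, RPL3, RPL10 and RPSA moved by less, to -0.19, -0.13, -0.13 and -0.14.

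**Figure D3:**
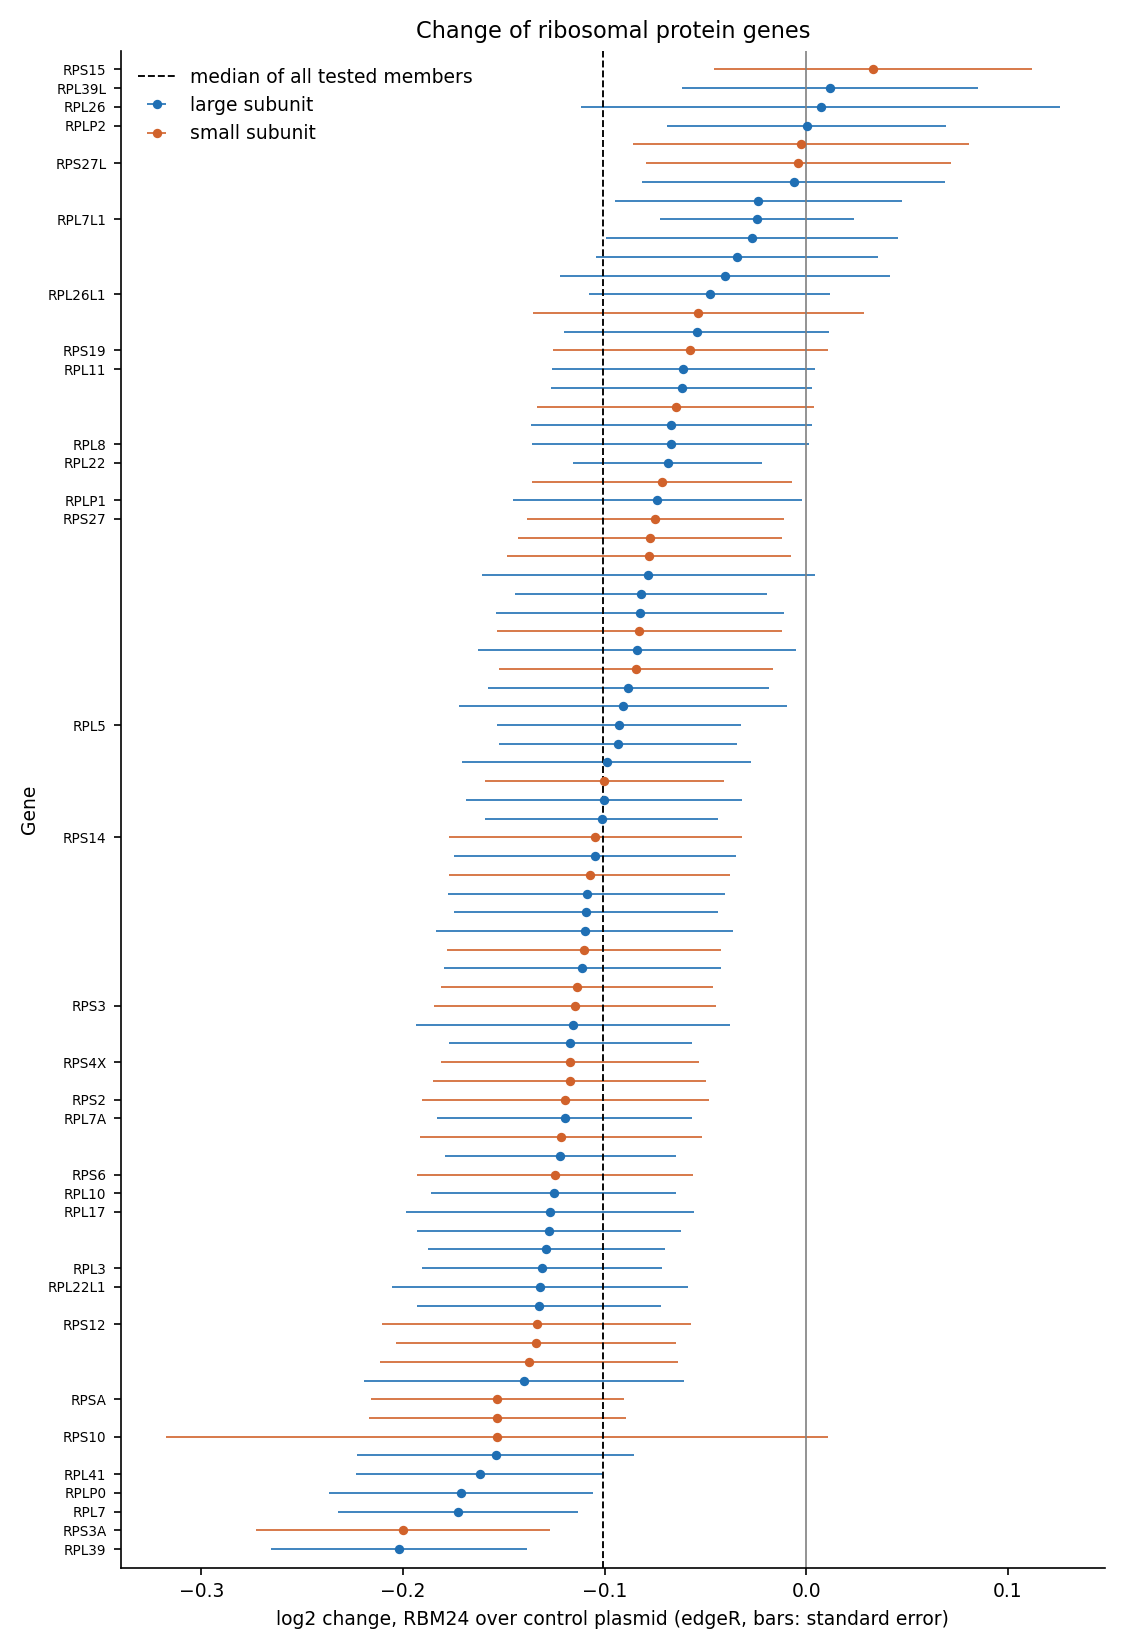
Fitted log2 change of 80 of the 82 tested members (points; horizontal axis, RBM24 over control plasmid, edgeR) with its standard error (bars), ordered by size and coloured by subunit, with the named members labelled. The dashed line is the median of all 82, -0.10, and 4 of the members shown lie above 0.

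In single libraries the members moved together. Each gene's log2 CPM was set against its own mean over the 6 libraries, and the median of the 82 deviations was 0.14, 0.10 and -0.08 in control libraries 1, 2 and 3. It was 0.04, -0.05 and -0.13 in RBM24 libraries 1, 2 and 3. The group means of these medians were 0.05 ± 0.12 and -0.05 ± 0.08 (SD, n = 3 each), so the difference between groups was smaller than the spread within the control group, and RBM24 library 1 lay above control library 3. Of the 82 members, 78 and 76 were above their own mean in control libraries 1 and 2, 5 in control library 3, 60 in RBM24 library 1, and 2 each in RBM24 libraries 2 and 3. Over all tested genes these shares lay between 49.8% and 51.7%. For 78 mitochondrial ribosomal protein genes they were 66.7%, 78.2% and 12.8% in control libraries 1, 2 and 3. In RBM24 libraries 1, 2 and 3 they were 70.5%, 41.0% and 15.4%. Of the 4 ribosomal genes outside the symbol rule, 3, 4 and 0 were above in the control libraries and 4, 0 and 0 under RBM24. A joint movement by library was thus not particular to the members.

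The members were also tightly packed within a library. Their interquartile range was 0.115 in control library 1 and 0.0272 in RBM24 library 3, with the others between. For 1926 other genes with a mean of at least 100 CPM the corresponding ranges were 0.130 and 0.0948, and the members had the narrower range in each of the 6 libraries. The highest CPM of the 6 was in control library 1 for 49 members and in control library 2 for 27. The lowest was in RBM24 library 3 for 61 and in control library 3 for 16. The members farthest from their fellows were RPS10, at 0.60 in control library 1, and RPL26, at -0.35 in control library 3, and both are among those with a larger overlapping entry.

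**Figure D4:**
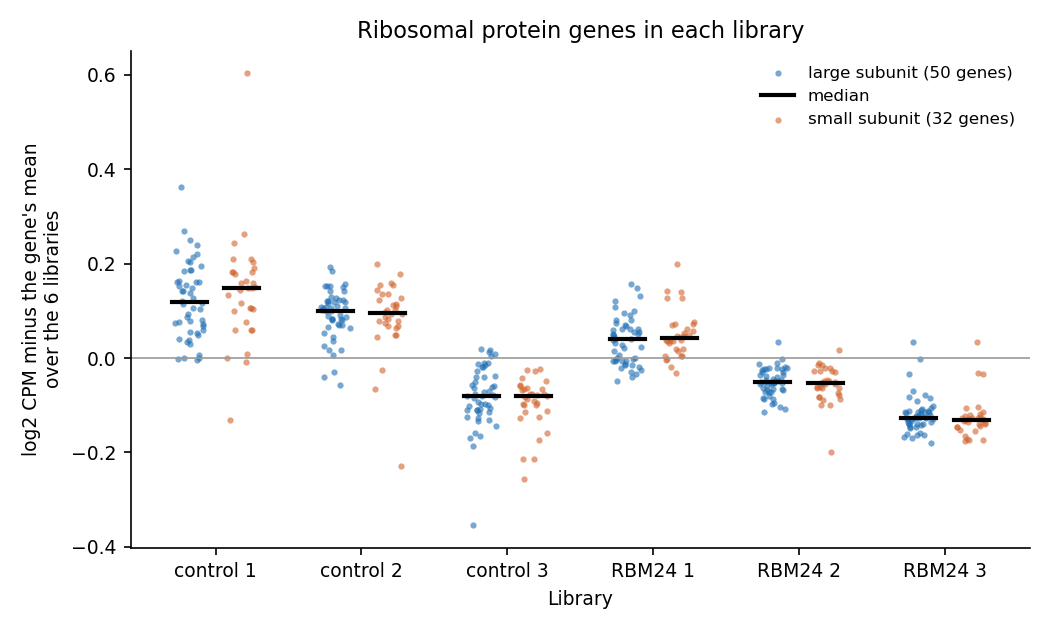
Deviation of each member from its own 6-library mean (log2 CPM, vertical axis) in each library, large subunit on the left and small subunit on the right, with medians as black bars. Both subunits take the same order across libraries, and control library 3 lies below RBM24 library 1.

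Among large subunit genes, RPL39, a short protein of the exit tunnel, had the lowest change. Its levels were 628, 572 and 530 CPM with the control plasmid and 526, 499 and 480 under RBM24. All RBM24 libraries lay below all control libraries, but the gap between control library 3 and RBM24 library 1 was small. The log2 change was -0.20 with an SE of 0.064 (adjusted p = 0.152 by edgeR with Benjamini-Hochberg). Over 21 alternative fits the adjusted p of RPL39 ran from 0.0219 to 0.497 and passed in 3, among them edgeR with no filter on low counts (0.0219) and without control library 3 (0.0383, Benjamini-Hochberg). Without control library 1 the log2 change was -0.14 with an adjusted p of 0.331 by edgeR.

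RPL7, another large subunit protein, stood at 1500, 1470 and 1344 CPM with the control plasmid and at 1317, 1281 and 1229 with RBM24. Again no library of one group reached into the other, at a log2 change of -0.17 with an SE of 0.060 (adjusted p = 0.201 by edgeR with Benjamini-Hochberg). RPL3, whose protein reaches toward the peptidyl transferase centre, was at 1765, 1839 and 1689 CPM and at 1680, 1623 and 1530, a log2 change of -0.13. RPL10, which joins late on the export route and is needed to free the subunit for translation, was at 1561, 1669 and 1483 CPM and at 1481, 1465 and 1374, a log2 change of -0.13. For RPL10, RBM24 library 1 lay just below control library 3. RPL41 was at 1049, 1019 and 913 CPM and at 916, 893 and 855, and here RBM24 library 1 lay above control library 3.

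The libraries of the groups did not overlap for 8 members, all with RBM24 lower: RPL39, RPL7, RPLP0, RPL3, RPL6, RPL10, RPL4 and RPL22. That is 9.76% of the members, where 8.62% of all tested genes had all RBM24 libraries below all control libraries. No member had the reverse order, which 9.53% of all tested genes had. All 8 encode large subunit proteins, and RPL22 is among those with a larger overlapping entry. Some gaps were narrow: control library 3 and RBM24 library 1 stood at 1483 and 1481 CPM for RPL10 and at 1470 and 1461 for RPL6. RPSA, of the small subunit, missed separation by little, at 876 and 889 CPM in the same libraries. Median log2 changes were -0.10 for the large and -0.11 for the small subunit genes, and a difference between subunits was not tested.

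The P-stalk recruits translation factors to the large subunit and is built from RPLP0, RPLP1 and RPLP2. RPLP0, its base, was at 2337, 2573 and 2265 CPM with the control plasmid and at 2211, 2173 and 1987 under RBM24. The log2 change was -0.17 with an SE of 0.065 (adjusted p = 0.262 by edgeR with Benjamini-Hochberg). Its partners differed less: RPLP1 was at 1334, 1440 and 1225 CPM and at 1371, 1274 and 1154, a log2 change of -0.07. RPLP2 was at 725, 779 and 667 CPM and at 791, 712 and 669, a log2 change of 0.00. Both overlapped between groups, and none of the 3 passed the test; the differences between them were not tested.

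RPL5 and RPL11 bind 5S ribosomal RNA and, when free of the ribosome, hold back the ubiquitin ligase MDM2. RPL5 was at 1349, 1297 and 1183 CPM with the control plasmid and at 1234, 1189 and 1166 with RBM24, a log2 change of -0.09. RPL11 was at 1445, 1473 and 1284 CPM and at 1423, 1334 and 1271, a log2 change of -0.06. Neither separated the groups, and their edgeR Benjamini-Hochberg adjusted p-values were 0.555 and 0.757.

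The small subunit genes had no member whose libraries separated. RPS3A, a protein of the platform near the mRNA exit, had the lowest change of the 32, with 1681, 1478 and 1355 CPM with the control plasmid and 1382, 1307 and 1240 under RBM24. RBM24 library 1 lay above control library 3, and the log2 change was -0.20 with an SE of 0.073 (adjusted p = 0.232 by edgeR with Benjamini-Hochberg). It passed in 1 of 21 alternative fits, edgeR with no filter on low counts (adjusted p = 0.0355, Benjamini-Hochberg), and its adjusted p in the 21 ran up to 0.625. RPS6, the substrate of S6 kinase, was at 2012, 1846 and 1672 CPM and at 1768, 1690 and 1615, a log2 change of -0.12. RPSA, the laminin-binding ribosomal protein, was at 955, 993 and 876 CPM and at 889, 860 and 791, a log2 change of -0.15. RPS4X, encoded on the X chromosome, was at 1265, 1235 and 1110 CPM and at 1180, 1090 and 1058.

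RPS19 and RPS14, the genes tied to Diamond-Blackfan anaemia and to the 5q- syndrome, had log2 changes of -0.06 and -0.10. That of RPS14 was near the median of the members. RPS19 had 951 ± 74.1 and 914 ± 68.5 CPM and RPS14 1078 ± 115 and 1003 ± 59.4 (SD, n = 3 each), and the groups overlapped for both. For RPS3 the values were 2902 ± 231 and 2680 ± 171 CPM, and for RPS12 they were 1435 ± 168 and 1308 ± 82.1 (SD, n = 3 each), again with overlap.

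Only 5 members had a fitted change above 0. Among them RPL26 was at 237, 177 and 144 CPM with the control plasmid and at 205, 173 and 184 under RBM24, a log2 change of 0.01 that became -0.12 with its overlapping entry. RPS15, with a log2 change of 0.03, RPL39L with 0.01 and RPLP2 with 0.00 also took the other sign in some fits. Below 0, RPS10 stood at 13.5, 7.59 and 7.67 CPM and at 9.36, 7.74 and 8.71. Its log2 change of -0.15 rested on control library 1 and was 0.18 without that library. With the far larger overlapping entry RPS10-NUDT3 added, the log2 change of RPS10 was -0.10 with an SE of 0.070.

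The tested paralogs of the canonical genes were expressed at lower levels than their parents, and each had overlapping groups. Their counts were read as a percentage of the parent's counts in the same library, without correction for length. RPL39L, which replaces RPL39 in male germ cells and some tumours, was at 5.92%, 5.78% and 5.83% of RPL39 in the control libraries and at 6.84%, 6.93% and 6.54% with RBM24. These groups did not overlap, and RPL39L itself was at 33.7 ± 3.18 and 34.0 ± 2.36 CPM (SD, n = 3 each), so the RBM24 libraries were lower in RPL39 and not in RPL39L; the difference between the genes was not tested. RPL7L1 was at 17.6% ± 1.07 and 19.5% ± 1.26 of RPL7 and RPS27L at 3.86% ± 0.390 and 4.05% ± 0.141 of RPS27 (SD, n = 3 each). RPL22L1, which is under the control of RPL22, was at 27.7% ± 3.30 and 26.6% ± 1.17, and RPL26L1 at 27.5% ± 4.67 and 25.8% ± 1.60 of RPL26 (SD, n = 3 each). The counts of RPL22 and RPL26 are among those uncertain through larger overlapping entries, and so are these percentages.

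Base composition moved with the libraries. Across the 82 members the Pearson correlation between the deviation in a library and the GC content of the transcript was -0.47, 0.40 and -0.04 in control libraries 1, 2 and 3. It was 0.37, 0.37 and -0.21 in RBM24 libraries 1, 2 and 3. Over 13527 protein-coding genes it had the same sign in each library, at -0.33, 0.23, -0.11, 0.26, 0.18 and -0.17. These points share libraries and are described, not tested. The 41 members with GC above their median had a median deviation of 0.08 in control library 1 and the other 41 one of 0.16. The medians of the log2 change were -0.10 and -0.11. Across the 82 members the log2 change correlated with GC content at 0.29, and over the protein-coding genes at 0.14, also as a description. The part of base composition in the members' values was not tested.

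**Figure D5:**
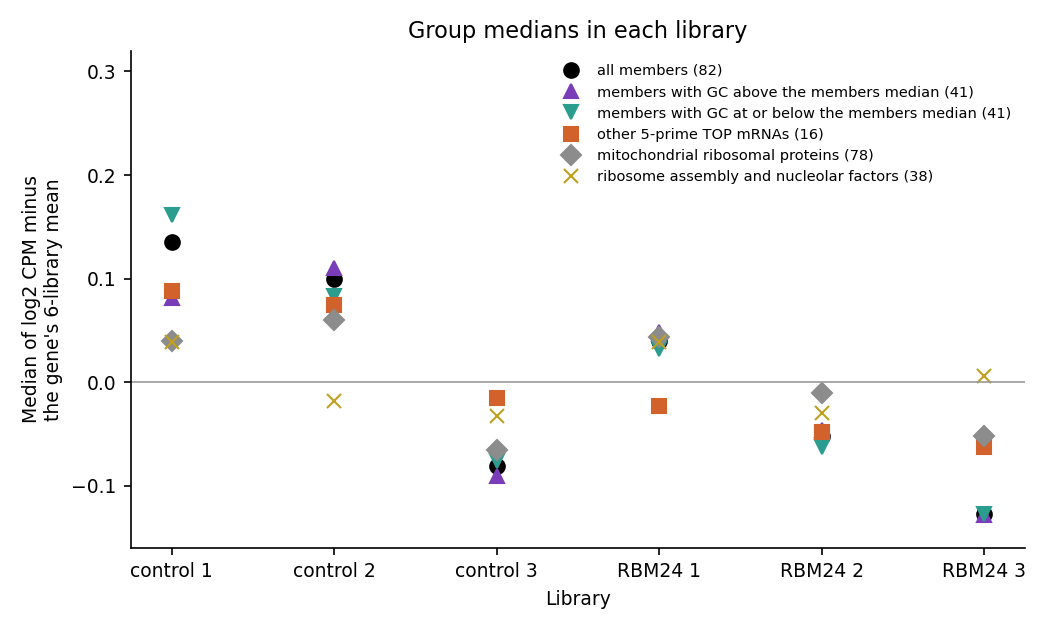
Median deviation from the 6-library mean (log2 CPM, vertical axis) in each library for all 82 members, for members above and at or below their median GC content, and for 3 comparison lists with the number of genes tested in brackets. The mitochondrial ribosomal proteins lie closer to 0 than the members in 5 of the libraries and the TOP list spans -0.06 to 0.09.

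The median change was also read by other features of the members, with no test of the differences. It was -0.12 for the 28 members that hold a small nucleolar RNA gene and -0.08 for the 54 that do not. Members with a start run of at least 5 pyrimidines (47) and with a shorter one (19) both had a median of -0.10. The 5 paralogs had a median of -0.02 and the 77 other tested members one of -0.10.

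The pseudogenes of the members showed control library 1 apart. Of 40 pseudogene entries with a mean of at least 100 counts, 23 had their highest CPM there, and 14 were at 1.5 times the mean of the other 5 libraries or more, against 0 in each of the other libraries. Without RPL9P9, RPS2P5 and RPS28P7, the remaining 37 summed to 288 CPM in control library 1 and to 168 to 194 in the others. RPL13AP25, a processed copy of RPL13A, held 1223 counts in control library 1 and 279 to 419 in the others. Their part in the members' levels in that library was not tested. With each member's pseudogene counts added, the median log2 change of the members was -0.10 and 0 were called.

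Among the genes with related roles, the other ribosomal entries moved little: 0 of 4 passed the test, and the fitted changes were -0.04 for RACK1, -0.03 for RPL36AL and -0.02 for FAU. Of 9 genes listed for translation elongation 0 passed, with a median log2 change of -0.03. The list holds EEF2K, a kinase, and EEF1E1, at 0.05 and 0.01, which are not elongation factors themselves. With EEF1A2 (0.07) they were the 3 above 0, and 6 lay below, among them EEF1G (-0.11) and EEF2 (-0.08). EEF1A1, which brings aminoacyl-tRNA to the ribosome, was at 8744, 8882 and 8466 CPM with the control plasmid and 7628, 7755 and 7684 under RBM24. Its groups did not overlap, and the log2 change was -0.18 with an SE of 0.060 (adjusted p = 0.196 by edgeR with Benjamini-Hochberg). Of 31 initiation factors 0 passed, with a median of -0.02. EIF4B, a helicase cofactor, stood at 522 ± 9.53 and 472 ± 6.19 CPM (SD, n = 3 each), and its fitted log2 change was -0.15 (adjusted p = 0.199 by edgeR with Benjamini-Hochberg).

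The list of 16 other TOP messages is given beside the members and shares many genes with the lists above. Among the shared genes are RACK1, EEF1A1, EEF1B2, EEF1D, EEF1G, EEF2, EIF3E and EIF4B, so the lists are not separate observations. In edgeR 0 passed the test, 15 had a change below 0 and the median was -0.09. For 7 of the 16 (43.8%) all control libraries exceeded all RBM24 libraries, against 8.62% of all tested genes. Of these 7, EEF1A1, EEF1G, EIF3E and EIF4B are also in the elongation or initiation lists. TPT1, a TOP message often used as the type example, was at 2232 ± 171 and 1988 ± 36.1 CPM (SD, n = 3 each), and its fitted log2 change was -0.17 (adjusted p = 0.256 by edgeR with Benjamini-Hochberg). By library the median deviations of this list were 0.09, 0.07 and -0.02 with the control plasmid and -0.02, -0.05 and -0.06 with RBM24, so that its groups nearly met at control library 3 but did not cross. VIM was the exception above 0, at 0.250 ± 0.110 and 0.452 ± 0.148 CPM (SD, n = 3 each).

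The 78 mitochondrial ribosomal protein genes, which serve the organelle's own ribosome, had 0 called and a median of -0.02, with 47 below 0. Of 38 ribosome assembly and nucleolar factors 0 passed, at a median of 0.01. TCOF1, which promotes ribosomal DNA transcription, was at 174 ± 6.65 and 193 ± 8.65 CPM (SD, n = 3 each), and its fitted log2 change was 0.15 (adjusted p = 0.184 by edgeR with Benjamini-Hochberg). Of 14 RNA polymerase I genes 1 rose and 0 fell. It was POLR1G, a subunit of the polymerase that makes the ribosomal RNA precursor, at 43.2, 45.1 and 46.0 CPM in the control libraries and at 52.99, 54.0 and 54.0 with RBM24. The log2 change was 0.26 with an SE of 0.051 (adjusted p = 0.0157 by edgeR with Benjamini-Hochberg), and the groups did not overlap. Of 14 mTORC1 and S6 kinase genes and of 8 genes around MDM2, 0 passed.

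An unadjusted p under 0.05 in edgeR was reached by 13.0% of all tested genes. It was reached by 0 of the 4 other ribosomal entries, 1 of the 9 genes listed for elongation and 2 of the 31 initiation factors. Among TOP messages the count was 5 of 16, and among assembly factors 2 of 38. The counts were 6 of the 78 mitochondrial ribosomal proteins and 2 of the 14 RNA polymerase I genes. They were 2 of the 8 genes around MDM2 and 1 of the 14 mTORC1 and S6 kinase genes. The 5 TOP messages were EEF1A1, EIF3E, EIF4B and TPT1, which were lower, and VIM, which was higher at 0.250 and 0.452 CPM. EEF1A1, EIF3E and EIF4B are the same genes as those counted for elongation and initiation. DESeq2, run on the same genes, called POLR1G and MRPS6 higher and EEF1A1 lower among all these lists. Its Benjamini-Hochberg adjusted p for EEF1A1 was 0.00602, so the call on this gene depended on the tool, as did that on MRPS6 (0.0464 by DESeq2, 0.0935 by edgeR). MRPS6, a small subunit protein of the mitochondrial ribosome, was at 65.4 ± 5.59 and 76.1 ± 2.64 CPM (SD, n = 3 each).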

How the data were processed

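RNA of 6 CAL27 libraries was read as 150-nt pairs. The submitters' processing notes name HISAT2 and GRCh38. Versions, the gene counter, its annotation and its use of strand are not given in the sources used here. Deposited counts are raw whole numbers per gene. The deposited FPKM were made by the authors from a gene length and a library total. Columns with NC in their name were taken for the control plasmid.

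Counts were filtered with filterByExpr, scaled with TMM and tested with the quasi-likelihood F test of edgeR 4.0.16 (R 4.3.3), with group alone in the model and 4 residual degrees of freedom. Adjustment was by Benjamini-Hochberg over 17887 genes with calls at an adjusted p under 0.05. Deviations by library are of log2 CPM (prior count 2). Gene models came from GENCODE 29 and start windows from RefSeq. The pipeline was tested on simulated data. Alternatives were other scalings, filters, DESeq2 1.42.0, limma 3.58.1 on counts or log2(FPKM + 1) and log2(FPKM + 0.1), protein-coding genes only, the replicate number as a block, each library left out, and pseudogene counts added. Adding overlapping entries and dividing by 1 transcript length were chosen after seeing the data. Pandas 2.3.3 and matplotlib 3.10.9 made tables and figures.

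The members and gene lists were chosen with earlier results of these data known. Named members are the 4 highest and 4 lowest changes, the 5 highest and 5 lowest FPKM, the paralogs with their parents and a panel (RPL5, RPL11, the P-stalk, RPS6, RPS19, RPS14, RPS3, RPSA, RPL10, RPS4X and RPL41). Lists are represented by called genes or the smallest p. TPT1, VIM, FAU and further list genes were chosen after their values were seen. The same holds for members named for separated libraries, read sharing, a start run or a changed rank. Some genes these rules name are not reported here.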

Additional observations from a re-analysis of the deposited data

How the results depend on the processing

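No member was called higher under any of the alternatives run. Called lower were 2 of 83 members with no low-count filter (RPL39 and RPS3A), where 341 of all 32353 genes were called lower. With the replicate number as a block it was 1 of 82 (RPL39, adjusted p = 0.0456), beside 135 of 17887 genes. Both fits were edgeR with Benjamini-Hochberg adjustment. Leaving out each library gave 0 to 1, the 1 being RPL39 without control library 3, where 198 of 18098 genes were called lower. No label used here says that equal numbers pair the samples. Deviations of same-numbered libraries correlated at 0.00724, 0.0555 and -0.00039 over the tested genes, and those of other pairs at -0.109 to 0.0914. With so few libraries this cannot settle whether they were paired. The block gave a median change of the members of -0.10. With each library left out that median ran from -0.16 (without control library 3) to -0.06 (without control library 1), for the large subunit from -0.16 to -0.06 and for the small subunit from -0.17 to -0.06. It was -0.07 with total counts only, where the median of all genes was 0.03, and -0.07 on log2(FPKM + 1). Members under an unadjusted p of 0.05 numbered from 1 (1.22%, against 11.9% of all genes in that fit, without RBM24 library 3) to 52 (63.4% against 13.3%, without control library 3), with 10 (12.2% against 11.5%) without control library 1, 36 (43.9% against 13.3%) with the block and 16 (19.5% against 10.9%) by DESeq2. The members' share of gene counts was 9.30% and 8.78% without mitochondrial genome genes, and with each library left out 8.38% to 8.81% (control) and 7.91% to 8.33% (RBM24). Of 33 named members, 9 changed sign in some alternative, among them RPS27L, RPL7L1, RPLP2, RPS15, RPS10, RPL26, RPL26L1 and RPL39L. The cause of these shifts was not tested. The members' standard errors had a median of 0.0686 on the log2 scale, beside a median change of -0.10, so that an absence of change was not shown.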
